A study of Mus musculus with 36 samples.

Results

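The spleens of 36 mice were divided by the level of 1 transcript, Gbp2b, into 26 with a high and 10 with a low level, and the remaining transcripts were compared between these classes. The classes rest on the single probe set that reports Gbp2b (Gbp1 in older annotations, on chromosome 3). An array whose log2(intensity + 16) for it was at or above 8.0 was called high and any other low, so the Gbp2b level itself is a description and carries no test. Per the labels, each array measured total RNA from the spleen of 1 mouse of an F2 generation at 4 months of age. Of these, 18 were labelled ART (arthritic) and 18 NON (non-arthritic). The design text of the series also gives a count of F2 mice below 36, which conflicts with these labels. The 36 labelled arrays were used, and every test treats each as a separate mouse. The series title names mice deficient for the interleukin 1 receptor antagonist, a secreted inhibitor of interleukin 1 encoded by Il1rn. The high class held 16 arthritic and 10 non-arthritic mice. The low class held 2 arthritic mice (replicates 5 and 18) and 8 non-arthritic mice (replicates 4, 6, 7, 11, 12, 13, 14 and 16). No label gives the founder strains, the genotype at Il1rn or at any other locus, the sex or an arthritis score, so neither class is a known genotype.

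Guanylate-binding proteins are large GTPases that cells make in quantity after exposure to interferon gamma. They coat the vacuoles of intracellular bacteria and parasites and help to open inflammasome responses to microbial products. In mice their genes lie in a cluster on chromosome 3, which holds Gbp2b, Gbp2, Gbp3, Gbp5 and Gbp7, and in another on chromosome 5. In an F2 generation, stretches of chromosome pass down from the founders in blocks, and neighbouring genes tend to travel together.

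The promoters of the chromosome 3 cluster are shown because its members belong to one interferon-inducible family, of which Gbp7 passed the comparison described below and Gbp2 and Gbp3 did not. The sequences are those of RefSeq (assembly GRCm38.p6, plus strand), each covering the 300 bases around the annotated start, of which the last 50 follow it. Capitals mark the letters GAAANNGAAA or, on the other strand, TTTCNNTTTC, the core of the interferon-stimulated response element. The promoter of Gbp2b at chr3:142594597-142594896 and that of Gbp7 at chr3:142530086-142530385 are given whole.
Gbp2b: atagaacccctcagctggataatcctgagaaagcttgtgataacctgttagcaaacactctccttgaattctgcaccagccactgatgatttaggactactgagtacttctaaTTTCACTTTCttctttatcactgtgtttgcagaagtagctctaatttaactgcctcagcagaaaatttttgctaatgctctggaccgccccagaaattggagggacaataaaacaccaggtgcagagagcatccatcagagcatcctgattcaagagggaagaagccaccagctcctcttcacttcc
Gbp7: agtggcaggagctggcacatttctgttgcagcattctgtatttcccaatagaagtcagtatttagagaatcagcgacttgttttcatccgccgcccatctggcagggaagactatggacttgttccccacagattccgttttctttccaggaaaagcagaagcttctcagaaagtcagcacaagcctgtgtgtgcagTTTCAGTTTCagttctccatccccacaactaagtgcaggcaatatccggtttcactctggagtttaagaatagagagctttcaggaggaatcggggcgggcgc
For the family members Gbp2 (promoter chr3:142620413-142620712), Gbp3 (chr3:142559794-142560093) and Gbp5 (chr3:142496684-142496983), the 30 bases around the first match are given.
Gbp2: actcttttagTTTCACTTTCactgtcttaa
Gbp3: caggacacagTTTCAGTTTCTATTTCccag
Gbp5: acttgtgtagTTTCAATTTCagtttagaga
The match began 137 bases before the start in Gbp2b, 53 before in Gbp7, 59 before in Gbp2, 45 before in Gbp3 and 165 before in Gbp5. Gbp3 held 2 overlapping matches in this promoter and 0 in its other one. Of all 32851 promoters of the same length in the table, 1131 (3.44%) held the motif. The letters TTCNNNGAA, the core of the gamma-activated site and the same on both strands, occurred 2 times each in Gbp7 and Gbp5, 0 times in Gbp2b, Gbp2 and Gbp3, and in 2726 (8.30%) of all promoters. None of these overlapped a marked match. A match is a run of letters in a reference genome. It shows neither a bound site nor a difference between these mice, whose own sequence was not measured.

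The classes stood apart in Gbp2b itself, the measure that formed them. In the 26 high spleens its level ran from 8.48 through a median of 9.21 to 9.94 on the log2 scale, and in the 10 low spleens from 4.65 through a median of 6.30 to 7.19. In intensity these were 340.6 to 964.7 with a median of 574.6, against 9.10 to 130.2 with a median of 64.2, and the medians stood in a ratio of 8.94. No array fell in the 1.29 log2 units between the highest low array (7.19, non-arthritic replicate 16) and the lowest high array (8.48, non-arthritic replicate 18). The next arrays on either side were non-arthritic replicate 6 at 7.09 and arthritic replicate 4 at 8.52. The low arrays were also the more scattered ones, with an SD of 0.79 (n = 10) around 6.21 against 0.39 (n = 26) around 9.22. In 5 of the low arrays the level lay below 6.49, the mean log2 under which probe sets were set aside as dim, and in 0 of the high arrays.

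**Figure D1:**
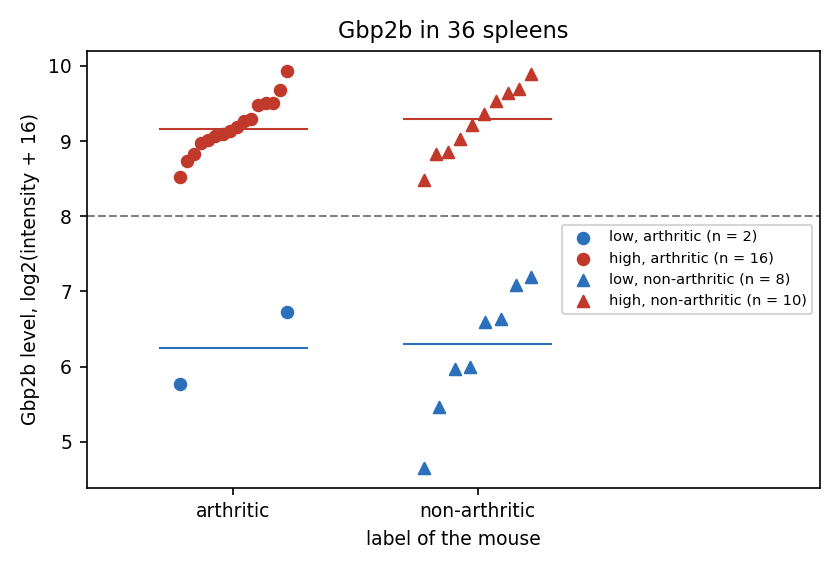
Gbp2b level, log2(intensity + 16), of each of the 36 spleens (vertical axis) by the label of the mouse. Circles are arthritic and triangles non-arthritic mice, red is high and blue low, solid lines are class medians and the dashed line is the boundary of 8.0. No spleen lies between 7.19 and 8.48 under either label.

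Low spleens were found under both labels. Of 18 arthritic mice 2 were low (11.1%, exact 95% interval 1.38% to 34.7%), and of 18 non-arthritic mice 8 were (44.4%, 21.5% to 69.2%), a difference of -33.3 percentage points that did not pass Fisher's exact test (two-sided p = 0.0599). With a boundary of 8.5 in place of 8.0, non-arthritic replicate 18 became low, and 9 of 18 against 2 of 18 gave p = 0.0275 in the same exact test. That boundary lies outside the gap, between 2 arrays of the high class (8.48 and 8.52), and only this 1 array changed class. Among arrays grouped by their added hybridisation control RNAs, the low counts were 1 of 9 arthritic and 1 of 4 non-arthritic in cluster A, 1 of 6 and 5 of 10 in B, and 0 of 3 and 2 of 4 in C. Within the high class Gbp2b had medians of 9.16 in arthritic and 9.29 in non-arthritic mice.

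The arrays of both classes were alike in overall brightness. Since the deposited values have a trimmed mean of 500.0 on every array, this likeness is partly set by their scaling. Median intensity of an array spanned 110.6 to 183.2, with class medians of 133.1 (high) and 131.9 (low). As a sign of RNA quality, 3 prime over 5 prime signal of Gapdh was 0.684 to 1.160 in high and 0.679 to 1.133 in low arrays, and the actin ratio reached 2.74 in 1 high array, arthritic replicate 14. Transcripts of pancreas acinar cells were flagged as high in 5 arrays, arthritic replicate 8 and non-arthritic replicates 2 and 5 of the high class and non-arthritic replicates 6 and 7 of the low class. Their mean log2 level was 13.27 in arthritic replicate 8 and 13.90 and 12.46 in non-arthritic replicates 5 and 6. It was only 7.44 and 7.86 in non-arthritic replicates 2 and 7, near the 7.13 of arthritic replicate 7, which was not flagged. Spleen markers were well measured in both classes, among them the B cell gene Ms4a1 at 13.14 ± 0.25 (SD, n = 26) and 12.95 ± 0.35 (n = 10). Il1rn was dim, at 6.49 ± 0.67 and 6.53 ± 0.38. The labels do not say which part of Il1rn was targeted, so this level checks no label. The number of arrays limits the precision.

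The comparison of high with low spleens asked which other transcripts moved with Gbp2b. All that passed were higher in the high spleens, and all lie on chromosome 3: Gbp7, Pdlim5, Ostc, Ugt8a and Synpo2. With the label as a term, limma called 5 of 27021 probe sets (0.0185%) higher and 0 lower at an adjusted p under 0.05, and 826 had an unadjusted p under 0.05. On chromosome 3 it called 5 of 1169 (0.428%). On the other chromosomes limma called 0 of 21372, with 643 at an unadjusted p under 0.05, and among probe sets with no chromosome given it called 0 of 4480, with 129. By place in the annotation the 5 genes stand 3, 6, 152, 225 and 251 genes before Gbp2b, in the order named above. None was called among the genes after it, where few of the 1169 probe sets lie. These were 12 in the nearest 40 genes, 34 between 40 and 100, 35 between 100 and 200 and 14 farther on. With so few, the absence of calls there does not tell the sides of Gbp2b apart. The count was 6 (0.0222%) with clusters of added control RNAs as a block, 6 (0.0133%) of 45036 with dim probe sets kept, 3 (0.0111%) without the label term and in non-arthritic mice alone, and 1 (0.0037%) in arthritic mice alone, where none of the 5 genes passed and the low class has 2 arrays.

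**Figure D2:**
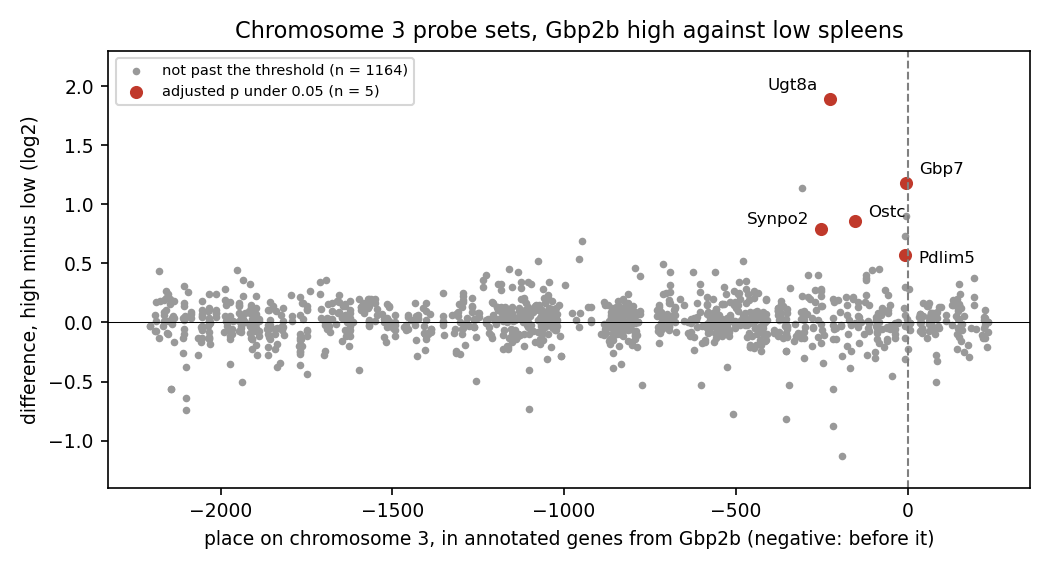
Difference between Gbp2b high and low spleens (log2, high minus low, label as a term) of the 1169 tested chromosome 3 probe sets other than that of Gbp2b, by their place in annotated genes before or after Gbp2b (dashed line). Red points are the 5 probe sets past the threshold, which stand 3 to 251 genes before Gbp2b, and grey points are the rest.

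Gbp7, a guanylate-binding protein of the same cluster, was, Gbp2b apart, the sole gene with a probe set whose high and low arrays did not overlap (1 of 27021, 0.0037%). On its brighter probe set its level ran from 9.76 through 10.18 to 10.76 in the high spleens and from 8.42 through 8.99 to 9.54 in the low ones. All 26 high arrays lay above all 10 low arrays. The difference was 1.18 (SE 0.12, 95% interval 0.95 to 1.42, limma adjusted p = 5.14e-08), a 2.27-fold difference on the log2(intensity + 16) scale. It was 1.02 within arthritic mice, where the low class has 2 arrays, and 1.25 within non-arthritic mice. Within clusters A, B and C of the added controls it was 1.39, 1.05 and 1.46. A second Gbp7 probe set ran from 5.78 through 8.51 to 9.57 in high and from 7.01 through 7.57 to 8.05 in low spleens. These ranges overlap. Its lowest value belongs to arthritic replicate 14, the array with the actin ratio of 2.74. Its difference of 0.90 (SE 0.24, p = 0.000572 before adjustment) did not pass over all arrays, of which 24 of the 26 high ones lay above the low median. Without that array it was 0.94 and passed, with a limma adjusted p of 0.0192. In the 35 fits that each left out another single array it did not pass. Whether probes for Gbp7 also take up Gbp2b RNA was not tested, since the probes' sequences were not used here.

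Ugt8a, the galactosyltransferase that makes the galactosylceramide of myelin, had the largest difference of the 5. It ran from 6.61 through 8.63 to 9.93 in high and from 5.75 through 6.58 to 8.53 in low spleens. The classes met through single arrays: low non-arthritic replicate 14 stood at 8.53 among the high values, and high arthritic replicate 1 at 6.61 among the low ones. The difference was 1.89 (SE 0.27, limma adjusted p = 0.00033), and all 26 high arrays lay above the low median. Within arthritic and non-arthritic mice it was 2.04 and 1.83, and within clusters A, B and C 1.80, 1.97 and 1.79.

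Pdlim5, a scaffold protein with PDZ and LIM domains that binds the actin cytoskeleton, showed a smaller difference on 1 of its 7 tested probe sets. Its level was 9.45 to 10.36 with a median of 9.87 in high spleens, and 9.11 to 9.63 with a median of 9.32 in low spleens. Of the high arrays 22 lay above every low array, and of the low arrays 8 lay below every high one. The difference was 0.57 (SE 0.10, limma adjusted p = 0.00549), with 0.36 in arthritic and 0.66 in non-arthritic mice. Without the 5 arrays with pancreas transcripts it was 0.58 and no longer passed (limma adjusted p = 0.0796). The other 6 tested probe sets of Pdlim5 did not pass, and their differences ran from -0.31 to 0.73. The probe set at 0.73 had an unadjusted p of 0.000465.

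Ostc, a subunit of the complex that attaches N-glycans to proteins in the endoplasmic reticulum, differed on 1 of its 2 probe sets. The dimmer of them ran from 7.62 through 8.19 to 8.97 in high and from 6.85 through 7.53 to 7.94 in low spleens. The upper part of the low range overlapped the lower part of the high range, and 19 high arrays lay above every low array. The difference was 0.86 (SE 0.14, limma adjusted p = 0.0016). It no longer passed without the label term (0.70, adjusted p = 0.0536) or in non-arthritic mice alone (0.95, adjusted p = 0.0784). The brighter one, at 11.63 ± 0.24 (n = 26) and 11.57 ± 0.19 (n = 10), differed by -0.01 (SE 0.09).

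Synpo2, an actin-binding protein of muscle and other contractile cells, had the highest adjusted p of the 5. The probe set that passed ran from 8.87 through 9.75 to 10.48 in high and from 8.53 through 9.05 to 9.74 in low spleens. The classes overlapped widely, and 13 of the 26 high arrays lay above every low array. The difference was 0.79 (SE 0.15, limma adjusted p = 0.0293), with 0.98 in arthritic and 0.72 in non-arthritic mice. Leaving out any 1 of 13 single arrays (arthritic replicates 5 and 18, non-arthritic replicates 1, 2, 4, 5, 6, 7, 9, 11, 12, 13 and 18) ended the call, with limma adjusted p between 0.0506 and 0.284. So did leaving out the arrays with pancreas transcripts, at 0.71 and an adjusted p of 0.838, and moving the boundary to 8.5, at 0.72 and 0.168. Without the label term its adjusted p was 0.051, and in non-arthritic mice alone it was 0.21. The 3 other tested probe sets of Synpo2 were at -0.17, -0.01 and 0.14.

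**Figure D3:**
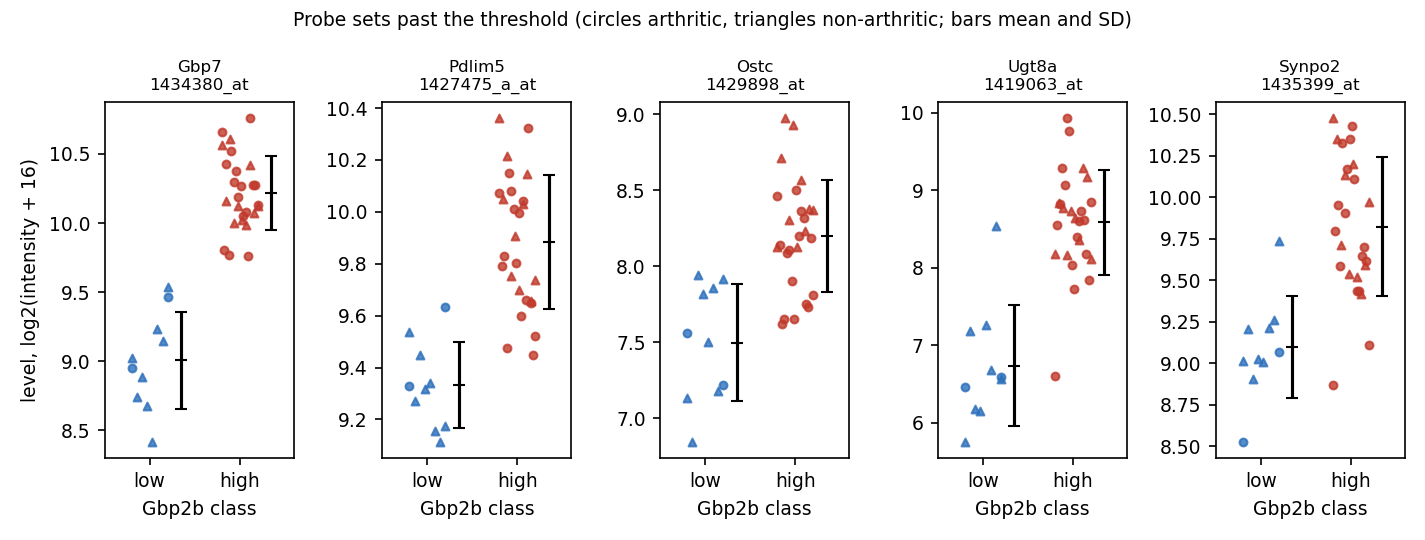
Level, log2(intensity + 16), of the 5 probe sets past the threshold in each low (blue, n = 10) and high (red, n = 26) spleen, with bars for the mean and SD of each class. Circles are arthritic and triangles non-arthritic mice. The classes stay apart for Gbp7 and overlap for the other 4.

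Of the 5 called genes 4 are in the promoter table. One of the 2 promoters of Pdlim5 held the GAAANNGAAA motif, and those of Ugt8a and Synpo2 did not. The match in Pdlim5 began 4 bases after the start, not before it as in the chromosome 3 cluster. Of all promoters 3.44% held the motif.

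Most of the genes closest to Gbp2b did not pass. Within 40 annotated genes on either side, 16 genes were tested, 9 before and 7 after it, and 2 of them were called (Gbp7 and Pdlim5). Of the 16, 13 differed by less than 0.15 in either direction. Gbp2, the guanylate-binding protein gene next to Gbp2b in the annotation, was at 9.65 ± 0.26 (n = 26) in high and 9.69 ± 0.28 (n = 10) in low spleens, a difference of -0.03 (SE 0.11, 95% interval -0.25 to 0.19). Its second probe set was at -0.23 (SE 0.16). Gbp3, which lies between Gbp7 and Gbp2b, was at 9.44 ± 0.32 and 9.34 ± 0.35, with a difference of 0.03 (SE 0.13, 95% interval -0.22 to 0.29). Both intervals exclude a difference as large as that of Gbp7. Kyat3, an aminotransferase of the kynurenine pathway 5 genes after Gbp2b, was at 0.28 (SE 0.16) and did not pass. No probe set that names Gbp5 alone was available.

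Further along chromosome 3, the genes that came nearest to the threshold without passing were picked after their values were seen. Frrs1, a ferric reductase 344 genes before Gbp2b, was at 8.71 ± 0.32 (n = 26) in high and 9.14 ± 0.20 (n = 10) in low spleens (-0.53, SE 0.11, limma adjusted p = 0.204), and 22 of 26 high arrays lay below the low median. Alg14, which serves the first steps of N-glycan assembly and stands 306 genes before Gbp2b, was at 6.94 ± 0.67 and 5.85 ± 0.65 (1.13, SE 0.26, limma adjusted p = 0.402). Abcd3, a transporter of the peroxisomal membrane 290 genes before, differed by 0.22 (SE 0.06). In blocks of gene order, an unadjusted p under 0.05 was reached by 4 of 20 probe sets in the 40 genes before Gbp2b, 1 of 33 between 40 and 100 genes before, 4 of 40 between 100 and 200, 6 of 38 between 200 and 300, and 3 of 50 and 4 of 75 in the next 2 blocks of 100 genes. It was reached by 0 of 12 in the 40 genes after Gbp2b, by 2 of 34 between 40 and 100 genes after it, by 4 of 35 between 100 and 200 after it, by 0 of 14 farther on and by 26 of 818 (3.18%) more than 500 genes before it.

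Whether Gbp2b moved together in degree with other genes was examined within the 26 high spleens alone, for 6 guanylate-binding protein and interferon-induced genes. Gbp7, on its brighter probe set, followed Gbp2b with Pearson r = 0.69 (permutation p adjusted over 6 genes = 0.00066). Spearman's rho was 0.67 (adjusted permutation p = 0.00198), and both tests were two-sided. Without the 2 arrays farthest from the Gbp2b median r was 0.67, and within clusters A and B of the added controls it was 0.65 (n = 11) and 0.92 (n = 10), while cluster C held 5 high arrays and gives no value. For Gbp2 r was 0.30, for Gbp3 0.35, for the interferon-induced transcription factor Irf1 0.25, for the chemokine Cxcl9 0.16 and for the immunity-related GTPase Igtp -0.06. None of these 5 passed, with adjusted permutation p between 0.252 and 0.76 for r. Gbp5, also planned for this family, had no probe set that names it alone. No correlation was computed for the second Gbp7 probe set, whose lowest value (5.78) belongs to arthritic replicate 14, highest in Gbp2b (9.94). Nor was one computed for Pdlim5 or the other called genes. On its called probe set Pdlim5 was at 10.32 in arthritic replicate 14 and 10.36 in non-arthritic replicate 1 (Gbp2b 9.89). It was at 9.74 in non-arthritic replicate 18 and 9.47 in arthritic replicate 4, lowest of the high class in Gbp2b (8.48 and 8.52).

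**Figure D4:**
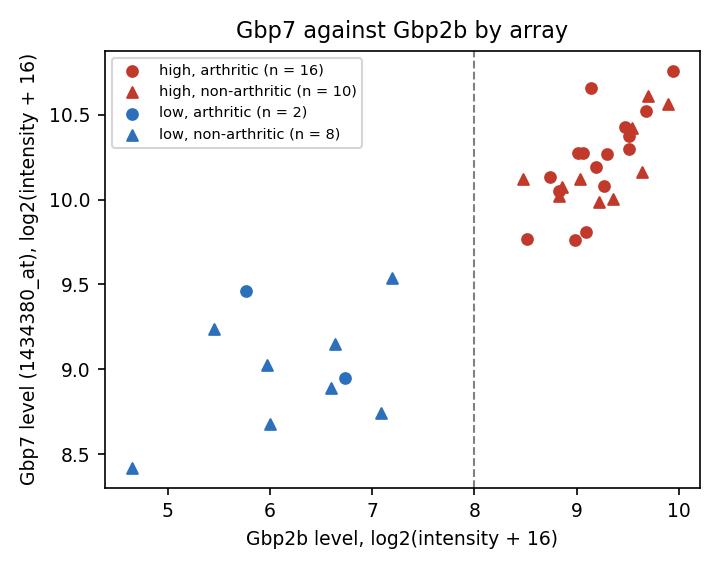
Gbp7 level on its brighter probe set against Gbp2b level, both log2(intensity + 16), 1 point per spleen. Red is high and blue low, circles are arthritic and triangles non-arthritic mice, and the dashed line is the boundary of 8.0. Within the 26 high spleens both levels rise together (r = 0.69), and all low spleens lie below 9.54 for Gbp7.

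No gene of the wider interferon programme to which guanylate-binding proteins belong passed the test. Of the 21 tested genes of the interferon gamma pathway 0 passed in limma and 4 had an unadjusted p under 0.05, which 444 of all 12426 genes had. Of these 21, 18 had a positive difference, with a median of 0.13, while of all genes 55.7% were positive with a median of 0.01. The 4 were Cxcl10, a chemokine that draws T cells (0.58, SE 0.18), the adhesion molecule Icam1 (0.27, SE 0.11), the checkpoint ligand Cd274 (0.29, SE 0.12) and the immunoproteasome subunit Psmb10 (0.21, SE 0.08). Cxcl10 ran from 8.10 to 9.74 in high and from 7.18 to 9.23 in low spleens. These ranges overlap, with 7 high arrays above every low array and 2 low arrays below every high one. Within clusters A, B and C its difference was 1.18, 0.06 and 0.78. Fewer cells of a type and less RNA per cell cannot be told apart in whole spleen.

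Of 30 tested type I interferon response genes 0 passed in limma and 0 had an unadjusted p under 0.05, and 17 were positive with a median of 0.03. Oas1a, a sensor that activates RNase L, varied widely among mice in each class, at 9.21 ± 1.37 (n = 26) and 8.35 ± 1.72 (n = 10). Of 6 tested immunity-related GTPases, which like the guanylate-binding proteins act on pathogen vacuoles, 0 passed and 0 had an unadjusted p under 0.05, with 4 positive. Iigp1 was at 0.16 (SE 0.15), Ifi47 at 0.09 (SE 0.09) and Irgm2 at -0.09 (SE 0.13). Of the chromosome 5 guanylate-binding proteins, Gbp8 was at 10.59 ± 0.44 and 10.08 ± 0.42 (0.34, SE 0.15, p = 0.0303 before limma's adjustment, not passed) and Gbp6 at 0.10 (SE 0.19).

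**Figure D5:**
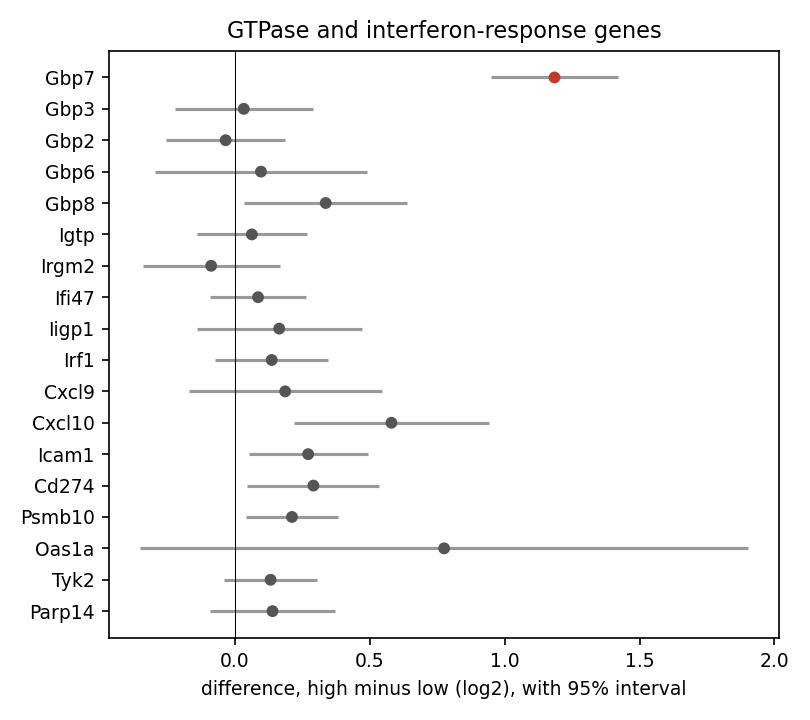
Difference between Gbp2b high and low spleens (log2, high minus low, label as a term) with its 95% interval, for guanylate-binding proteins, immunity-related GTPases and further interferon-response genes, each on its brightest probe set. Red marks the single gene past the adjusted threshold, Gbp7 at 1.18, and Gbp3 and Gbp2 lie at 0.03 and -0.03.

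Other genes that divide mice of both labels into a high and a low set did not pass in this comparison. Of 7 such genes on other chromosomes, taken from an earlier analysis of the same arrays, 0 passed in limma and 0 had an unadjusted p under 0.05. Mndal, an interferon-inducible DNA-binding protein gene on chromosome 1, ran from 7.17 to 13.43 in high and from 7.23 to 12.97 in low spleens on its brightest probe set, so both extremes occurred in both classes. The class II antigen-presentation genes H2-Ea and H2-Eb1, on chromosome 17, were at 0.35 (SE 0.57) and 0.25 (SE 0.52).

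No gene of the cell type lists passed. Of the 10 tested neutrophil genes all had a negative difference (high minus low), as 5508 of all 12426 genes did, with a median of -0.56. An unadjusted p under 0.05 was reached by 3 of them, against 444 of the 12426: the collagenase Mmp8 (-0.98, SE 0.35), the peroxidase Mpo (-0.75, SE 0.34) and the elastase Elane (-0.71, SE 0.34). Their summed intensity ran from 40819 to 187976 in high spleens with a median of 83343, and from 48796 to 192971 in low ones with a median of 119254. These ranges cover nearly the same span, and Mpo was at 0.52 within arthritic and -1.25 within non-arthritic mice. Without the arrays with pancreas transcripts Mpo was at -0.36 and Elane at -0.34. All 9 B cell genes were positive with a median of 0.14, and all 13 cell cycle genes (median -0.13), all 8 erythroid genes (median -0.11) and all 5 adipose genes (median -0.57) were negative, with 0 passing in limma and 0 at an unadjusted p under 0.05 in each of these lists.

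Of the remaining marker lists, 9 of 10 T cell genes (median 0.11), 8 of 9 cytotoxic cell genes (0.15), 8 of 10 red pulp macrophage genes (0.18), 8 of 9 dendritic cell genes (0.18), 9 of 10 plasma cell genes (0.17) and 5 of 8 stroma genes (0.01) were positive, and 2 of 4 pancreas genes were. None of their members passed in limma, and an unadjusted p under 0.05 was reached by 0, 0, 2, 2, 1, 1 and 0 of them, in the same order. Examples are the plasma cell receptor Tnfrsf17 (0.38, SE 0.12), the dendritic cell integrin Itgax (0.22, SE 0.08), the iron exporter Slc40a1 (0.26, SE 0.11) and the matrix proteoglycan Lum (-0.51, SE 0.21). Of 21 tested interleukin 1 family genes 12 were positive and 0 passed, with 2 at an unadjusted p under 0.05: the decoy receptor Il1r2 (-0.70, SE 0.21) and the cytokine Il1a (0.43, SE 0.16). The part of these cell types in the differences of the 5 called genes was not tested.

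Whether the contrast itself differed between arthritic and non-arthritic mice was asked with an interaction term. Of 27021 probe sets limma called 0, while 1920 reached an unadjusted p under 0.05. The low class holds only 2 arthritic arrays. For Gbp7 the arthritic contrast minus the non-arthritic one was -0.23 (SE 0.26), for Ugt8a 0.21 (SE 0.61), for Ostc -0.31 (SE 0.30), for Pdlim5 -0.30 (SE 0.21) and for Synpo2 0.26 (SE 0.34). The lowest adjusted p belonged to Palm, which encodes a protein of the inner face of the plasma membrane. Its mean was 6.74 in high and 4.91 in low arthritic spleens and 6.34 in high and 7.79 in low non-arthritic spleens, a difference between the contrasts of 3.28 (SE 0.59, limma adjusted p = 0.0751). Palm passed in limma with a pseudocount of 1 (adjusted p = 0.0168), with the control clusters as a block (0.0436) or with a boundary of 8.5 (0.0275). It did not pass with dim probe sets kept (0.119), with quantile normalization (0.0999) or with replicate numbers as a block (0.9998). The low arthritic mean of 4.91 comes from 2 arrays and lies below 6.49, the mean under which probe sets were set aside as dim.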

How the data were processed

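Per the labels, spleen RNA was isolated with Trizol, and biotin-labelled targets were put on Affymetrix mouse arrays, 1 mouse each. The authors deposited linear intensity per probe set, for which the submitters' processing notes name MAS5 without a version. The trimmed mean (2% off each end) was 500.0 on every array. No label says how the mice relate to each other, so p-values measure the spread between these samples.

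Values were analysed as log2(intensity + 16), which understates the change of dim probe sets. Of 45101 probe sets, 64 controls and those whose mean lay below the 40th percentile (6.49) were left out, which left 27022, or 27021 without Gbp2b. The platform annotation names 1 gene for 34945 probe sets and several for 932, and leaves 9160 unlisted. Of the first, 34741 matched the reference table (GRCm38.p6), which gave names, chromosomes and gene order. limma 3.58.1 in R 4.3.3 (lmFit, eBayes with trend, two-sided, Benjamini-Hochberg, threshold 0.05) compared the classes with the label as a term, and was tested on simulated data. Gbp2b, whose p is small by construction, was left out of the adjustment, which ran over the other 27021. This was decided after the data were seen, since a first run had kept it in. Correlations used 100000 permutations (Python 3.11.15, numpy 2.4.6, scipy 1.17.1).

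The members, lists and tests were chosen with earlier results of these data known. Named genes are those past the threshold (up to 15 each way), all tested members of the guanylate-binding protein lists and of the list of divided genes, up to 4 members of each other list by unadjusted p, and the correlation family. A gene is represented by its brightest probe set. Genes near the threshold, further probe sets, neighbours that did not pass, Il1rn and Palm were named after their values were seen. The clusters of added controls are 3 Ward clusters of 18 hybridisation control probe sets, centred per array, and stand for no recorded batch. Their number came from the earlier analysis. Replicate numbers of the titles are shared by the labels. Same-numbered arrays correlated at -0.23 to 0.47 (median 0.15, 11 of 18 pairs over 0.1). For 2 of the 18 arthritic arrays the same-numbered non-arthritic array was the closest one. No label states a pairing, so the mice were treated as unpaired. These correlations cannot exclude that same-numbered mice share a litter or a processing day. Other boundaries, pseudocounts, filters, normalization, blocks and subsets were tried. The fit with Gbp2b kept in the adjustment and the fits without arrays with pancreas transcripts, without the array of high actin ratio and within clusters were added after the data were seen.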

Additional observations from a re-analysis of the deposited data

Results flagged for a closer look

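Within the 10 low spleens, single arrays stood far from the other 9 for 17 of the 115 probe sets examined (14.8%), where chance flags about 1 in 20 groups. All these probe sets share the same 10 arrays, and several mark the same cell type. Their flags are therefore not independent, and the share is no test against chance. Values are log2(intensity + 16), each with the median of the low spleens. Arthritic replicate 18 was lowest for the erythroid genes Gata1 (10.19, median 11.68), Rhag (11.17, median 12.50), Tfrc (12.97, median 13.82) and Ermap (11.84, median 13.44) and for the cyclin Ccna2 (11.15, median 12.48), and highest for the B cell gene Ms4a1 (13.84, median 12.85). Arthritic replicate 5 was highest for the decoy receptor Il1r2 (9.47, median 7.81) and the complement gene C1qa (13.09, median 12.14) and lowest for another probe set of Synpo2 (6.46, median 8.01). These are the 2 arthritic mice of the low class. Non-arthritic replicate 6, an array with pancreas transcripts, was highest for the pancreas genes Cela3b (11.51, median 7.19), Prss2 (12.32, median 7.40) and Zg16 (12.42, median 6.84) and lowest for the second probe set of Gbp2 (8.32, median 9.53). Non-arthritic replicate 7 was highest for Metap1 (12.03, median 11.52) and lowest for Tnfrsf17 (6.61, median 7.43). Kyat3 was lowest in non-arthritic replicate 11 (6.30, median 7.99) and Iigp1 in non-arthritic replicate 12 (9.72, median 10.38).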

How the results depend on the processing

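The 5 calls kept their direction in all settings run, and the count stayed at 5 with a boundary of 7.5, pseudocounts of 1 and 64, quantile normalization and no trend. It was also 5 with Gbp2b kept within the adjustment, which lowered the adjusted p of the 5 (Synpo2 to 0.0245, Gbp7 to 2.57e-08). It was 3 without the label term (Gbp7, Pdlim5, Ugt8a), where Synpo2 (limma adjusted p = 0.051) and Ostc (0.0536) were lost. It was 4 with a boundary of 8.5 (Synpo2 lost), 6 without a filter (Akap13 added) and 6 with the control clusters as a block (an unnamed probe set added). It was 6 without the array of high actin ratio, where the second Gbp7 probe set joined. Leaving out single arrays gave 4 to 6. With the replicate block the count was 3 (Gbp7, Ugt8a and, lower, Retnla on chromosome 16), and the interaction count stayed at 0. It was 3 in non-arthritic arrays (Gbp7, Pdlim5, Ugt8a), 1 in arthritic arrays (Ica1, with 2 low arrays), and 3 without the arrays with pancreas transcripts (Gbp7, Ostc, Ugt8a). Within cluster A limma called 0 (2225 at an unadjusted p under 0.05), within B 1 (Gbp7) and within C 2 (Dock11 and an unnamed probe set), with fewer arrays in each. The interaction count was 1 (Palm) with a pseudocount of 1, with the clusters as a block and with a boundary of 8.5. The last also moved the difference in low shares to -38.9 percentage points (Fisher's exact test, p = 0.0275). Beyond what was given, the cause of these changes was not tested. Of 132 named probe sets 89 changed sign in some setting, but 0 of the 5 called ones did. The pooled Pearson correlations kept their sign and their side of the threshold under the other pseudocount, quantile normalization and centring within label. Spearman's rho of Igtp went from -0.025 to 0.012 with quantile normalization. Within clusters A and B, r was -0.16 and 0.19 for Igtp and -0.27 and 0.37 for Cxcl9. With 10 low arrays, 2 of them arthritic, a difference that missed the threshold was not shown to be absent.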

Other observations

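Outside chromosome 3, genes of low unadjusted p were looked at after their values were seen, and none passed in limma. Retnla, a secreted product of alternatively activated macrophages on chromosome 16, ran from 6.22 through 7.67 to 9.18 in high and from 6.92 through 9.18 to 9.91 in low spleens. No high array lay above the low median, and the lowest low array stood among the high ones. The difference was -1.16 (SE 0.27, limma adjusted p = 0.402). By label it was -0.59 (arthritic) and -1.39 (non-arthritic), and it was -1.31, -0.88 and -1.65 in clusters A, B and C. It passed without non-arthritic replicate 16 (-1.35, limma adjusted p = 0.0125) and with the replicate block (-1.37, adjusted p = 0.0229). Orm1, an acute phase protein of plasma, was at -0.98 (SE 0.27), and Gsdme, a pore-forming gasdermin, at -1.09 (SE 0.31). The checkpoint receptor Havcr2 was at 0.35 (SE 0.10) and the endoplasmic reticulum stress factor Atf6b at 0.22 (SE 0.06).

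An unnamed probe set was at 10.21 ± 0.60 (n = 26) in high and 9.16 ± 0.73 (n = 10) in low spleens. It differed by 0.97 (SE 0.24, limma adjusted p = 0.772), and all 26 high arrays lay above the low median. With the control clusters as a block it passed, at 0.88 (adjusted p = 0.0478). Among arthritic mice the difference was 0.16 and among non-arthritic mice 1.30.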
